A study of Homo sapiens with 6 samples.

Results

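COL1A1 and COL1A2 encode the chains of type I collagen, and the regions occupied by the zinc finger protein ZNF469 were examined in and around these genes. The members were all records of the deposited CUT&RUN peak lists that lay between 100 kb upstream and 100 kb downstream of either gene (GENCODE annotation, hg38). There were 23 members among the 19108 regions of full-length ZNF469, 18 at COL1A1 and 5 at COL1A2, and 0 among the 54 regions of dZF-ZNF469. CUT&RUN releases the chromatin fragments around an antibody's target for sequencing, and here the antibody was raised against ZNF469. LX-2 cells, an immortalized human hepatic stellate cell line, carried a doxycycline-inducible piggyBac transgene for either construct, and all 6 libraries came from cells given doxycycline at 1 ug/mL for 24 h in medium with 2-Phospho-L-ascorbic acid, a form of vitamin C. Each construct had 3 libraries and its own name, clone3.4 for full-length ZNF469 and clone3.1 for dZF-ZNF469, in which the greater part of the zinc finger domain is deleted. Whether these names refer to cell clones or plasmid clones is not stated, and construct and line cannot be told apart. No library without transgene, without doxycycline or with a control antibody was analysed here. The 3 libraries of a construct were pooled in 1 list, so no value below has a replicate error, and no comparison between constructs or genes was tested.

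Type I collagen is the main fibrillar collagen of scar tissue and is a heterotrimer of COL1A1 and COL1A2 chains. The genes lie on different chromosomes and yet are transcribed in proportion. In the injured liver, hepatic stellate cells are the main source of both chains.

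The sequences below, from the hg38 plus strand, surround the summits on which the contrast between the genes turns. The first pair holds the region with the highest pileup in each gene body. COL1A1 is transcribed from the minus strand, so its sequence reads against the direction of transcription. Each label names the intron that holds the summit. The COL1A1 summit lies 46 bp from the edge of exon 11, so the last printed bases are in that exon. Capitals in the COL1A1 sequence mark the letters TGACTCA, the element bound by AP-1, the FOS and JUN family of dimers. The second of these marks, centred 41 bp from the summit, lies just inside the intron, beside the exon edge. Capitals in the COL1A2 sequence mark AACCACA, the reverse complement of the element TGTGGTT that is bound by RUNX factors.
COL1A1, intron 11, chr17:50196864-50197063: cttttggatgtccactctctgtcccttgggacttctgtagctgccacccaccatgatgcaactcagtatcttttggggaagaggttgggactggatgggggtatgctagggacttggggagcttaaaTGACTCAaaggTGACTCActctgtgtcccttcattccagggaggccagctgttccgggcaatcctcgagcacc
COL1A2, intron 40, chr7:94423999-94424198: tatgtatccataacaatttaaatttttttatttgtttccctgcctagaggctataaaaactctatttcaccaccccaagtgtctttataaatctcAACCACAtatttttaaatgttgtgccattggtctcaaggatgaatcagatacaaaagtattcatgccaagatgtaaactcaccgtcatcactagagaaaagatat

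The next 3 sequences are regions of the flanks with an AP-1 element, whose letters are in capitals. They are the AP-1 regions nearest upstream of each gene start, and the flanking region with the highest pileup, which lies past the end of COL1A1. The upstream labels give the distance of the summit. The label past the gene end gives the distance of the nearest edge of the whole region, and the printed bases lie further out.
COL1A1, 8.87 kb upstream of the start, chr17:50210438-50210557: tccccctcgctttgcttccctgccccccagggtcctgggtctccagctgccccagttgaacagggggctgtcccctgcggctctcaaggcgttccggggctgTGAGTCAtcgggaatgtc
COL1A1, 4.96 kb past the gene end, chr17:50178526-50178645: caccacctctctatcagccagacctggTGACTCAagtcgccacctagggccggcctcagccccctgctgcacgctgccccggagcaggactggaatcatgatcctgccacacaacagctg
COL1A2, 93.6 kb upstream of the start, chr7:94301175-94301354: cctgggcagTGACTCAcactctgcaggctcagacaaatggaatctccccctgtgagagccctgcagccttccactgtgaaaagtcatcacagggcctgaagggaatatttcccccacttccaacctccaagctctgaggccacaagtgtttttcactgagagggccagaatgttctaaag

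The lists give a fold enrichment and a −log10 p-value for each region, from which a summit pileup and a local background were recovered. The pileup is the number of pooled fragments over the summit, and is printed with 95% exact Poisson limits that cover counting error only. The local background is the number of fragments that the peak caller expected there. In the full-length list it advanced in steps of 0.0103 fragments, which is a mean fragment of 103 bp spread over 10 kb. It was accordingly taken to count the fragments that the pool itself had within the 10 kb centred on the summit, the region included. The lowest background of the list, 0.865, corresponds to 84 fragments per 10 kb. Over the full-length list the median pileup was 20.0, the median background 1.82 and the median fold 7.36.

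The genes differed first in the number and place of their regions. COL1A1 (ENSG00000108821.14, chromosome 17, 50184101 to 50201632, minus strand, 17.5 kb, 51 exons) had 7 regions upstream, 8 in the gene body and 3 downstream. COL1A2 (ENSG00000164692.19, chromosome 7, 94394895 to 94431227, plus strand, 36.3 kb, 52 exons) had 4 upstream, 1 in the gene body and 0 downstream. Per length of gene this was 4.56 regions per 10 kb in COL1A1 and 0.275 per 10 kb in COL1A2. A region in the gene body was found in 33.6% of the 20033 protein-coding genes, so the presence of a region in COL1A2 does not set that gene apart. At least 18 regions within 100 kb, the number at COL1A1, were found at 34 protein-coding genes (0.170%, COL1A1 included). At least 5, the number at COL1A2, were found at 4200 (21.0%), and the median gene had 2.00. No region of either gene overlapped the gene's start. The nearest edge lay 0.792 kb inside COL1A1, and at COL1A2 it lay 12.2 kb upstream.

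**Figure D1:**
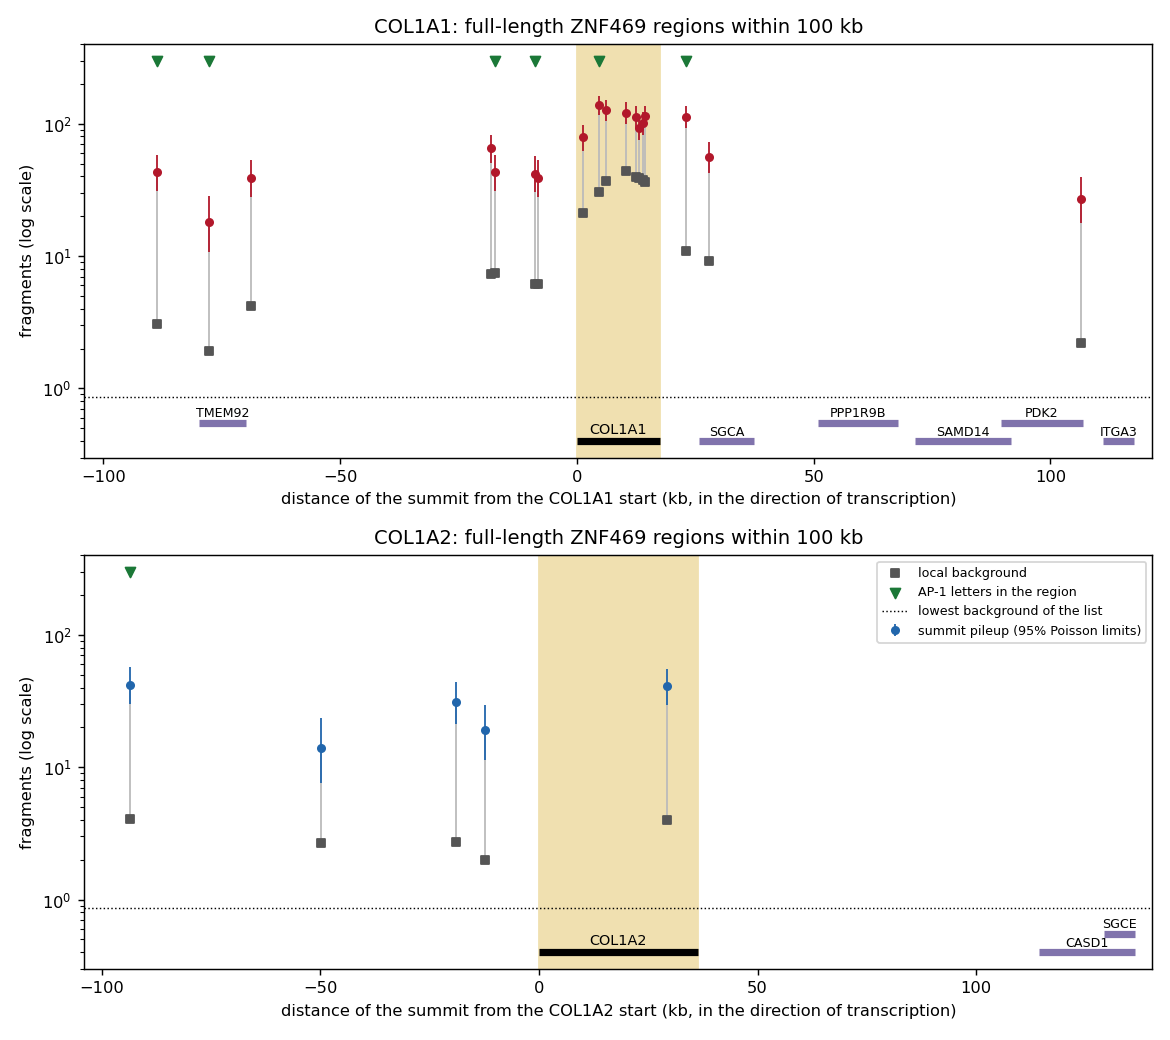
Full-length ZNF469 regions within 100 kb of COL1A1 (upper panel) and COL1A2 (lower panel), with the distance of the summit from the gene start in kb on the x axis and fragments on a log y axis. Circles are summit pileups with 95% Poisson limits, grey squares the local background, triangles regions with AP-1 letters, bars protein-coding genes, and the dotted line the lowest background of the list (0.865). The background is between 21.3 and 44.0 inside COL1A1 and 3.99 inside COL1A2.

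In the COL1A1 gene body the regions stood on a high local background. Numbered in the direction of transcription over the 18 regions of the window, they are regions 8 to 15. Region 8, in intron 1 from 50200154 to 50200840, had a pileup of 79 (62.5 to 98.5) over a background of 21.3, with a fold of 3.59. Region 9, from 50196787 to 50197283, had the highest pileup of the gene, 138 (116 to 163), over 30.2, with a fold of 4.45. Region 10, from 50195310 to 50195488, had a pileup of 126 (105 to 150) over 37.2. The background thus was higher at region 10 than at region 8, near the gene start, while the 95% limits of the pileups of regions 9 and 10 overlapped. Of the 10 kb around the summit, 62.5% lay in COL1A1 at region 8 and 100% at region 10. The part of this in the difference between the backgrounds was not tested.

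The highest background lay further into the gene. Region 11, from 50190876 to 50191705, had a pileup of 121 (100 to 145) over a background of 44.0, the highest of all 19108 regions. This background corresponds to 4276 fragments in 10 kb, or 50.9 times the lowest background of the list, and its 10 kb lay wholly within COL1A1. Regions 12 to 15, between 50187127 and 50189240, had pileups of 93 to 114 over backgrounds of 36.3 to 39.5. The last of these summits lay 14.4 kb from the start, and the final exons beyond it held no region. The 10 kb stretches around neighbouring summits overlap, so the 8 backgrounds are not separate measurements.

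Few regions elsewhere in the genome reached such a background. There were 12 regions of the full-length list with a background of 21.3 or more, the lowest value inside COL1A1. Of these, 8 were the COL1A1 regions, 2 were in COL3A1, which encodes the chain of type III collagen, and 2 were on chromosome 16. The highest background outside COL1A1 was 31.9, in COL3A1, and 6 of the 8 COL1A1 regions were above it. The folds of the 8 regions, 2.35 to 4.45, were all below the 5th percentile of the list (4.86). Region 13, with a pileup of 93 (75.1 to 114) over 39.1, had a fold of 2.35 where the lowest of the list was 2.09. Since the fold divides by the background, a ranking by fold puts these 8 regions at the foot of the list and a ranking by pileup puts them within its first 46. The upper 50% of the list by fold retained 0 of the 8, and 5 of the 18 regions in the COL1A1 window.

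**Figure D2:**
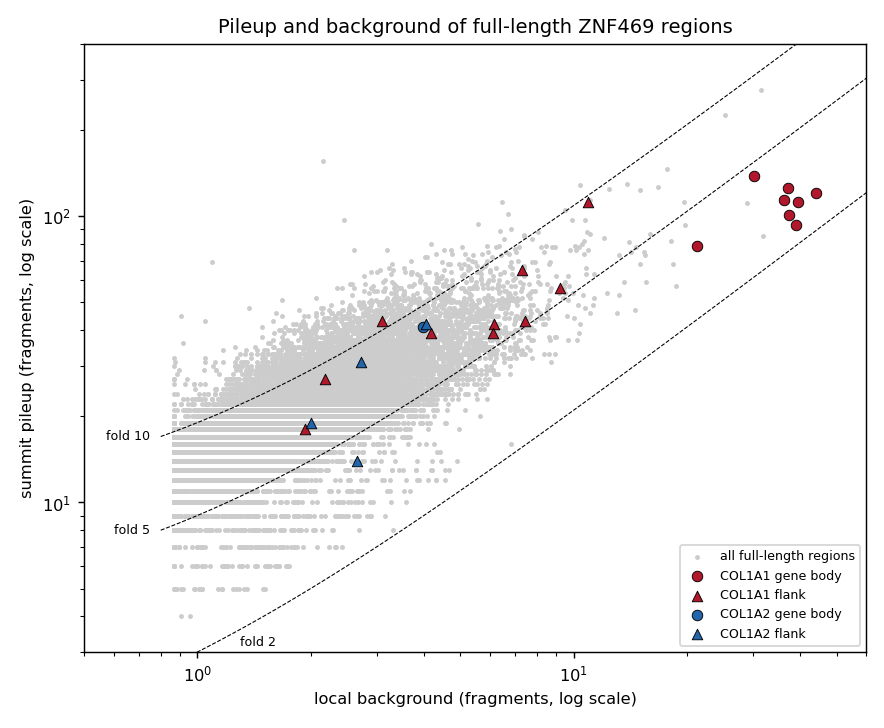
Summit pileup against local background (fragments, both axes log) for the 19108 full-length regions in grey, with COL1A1 in red, COL1A2 in blue, gene bodies as circles and flanks as triangles. Dashed lines join points of equal fold, and the 8 COL1A1 gene body regions lie at the far right, between the lines of fold 2 and 5, while all COL1A2 regions lie within the mass of the list.

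The COL1A2 gene body held a region of another kind. It ran from 94423854 to 94424380, overlapped exon 41 and had its summit in intron 40, 80.4% of the way along the gene. Its pileup was 41 (29.4 to 55.6) over a background of 3.99, with a fold of 8.42. The 10 kb around the summit lay wholly inside the gene and held 387 fragments, 4.61 times the lowest background of the list. By fold it exceeded 71.2% of the list, and by pileup it ranked 972. The remaining gene body, including the 29.0 kb from the start to this region, had no record.

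Set side by side, the highest region of COL1A1 had 3.37 times the pileup of the COL1A2 region (95% limits 2.36 to 4.89, counting error only), and 7.58 times its background. Since the background differed more than the pileup, the fold was in the opposite order, 8.42 at COL1A2 and 4.45 at COL1A1, which is 1.89 times higher at COL1A2. With the background subtracted, the pileups were 108 and 37.0, a ratio of 2.91. The 10 kb around COL1A1 region 11 held 11.0 times (9.95 to 12.3, counting error only) the fragments of the 10 kb around the COL1A2 region. Region 11 is not the region of highest pileup. It was taken for its background, the highest of the list, and the limits do not allow for that choice. The −log10 p-values were 46.2 and 27.6. The direction of the contrast between the genes thus depended on whether fold or pileup was read.

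**Figure D3:**
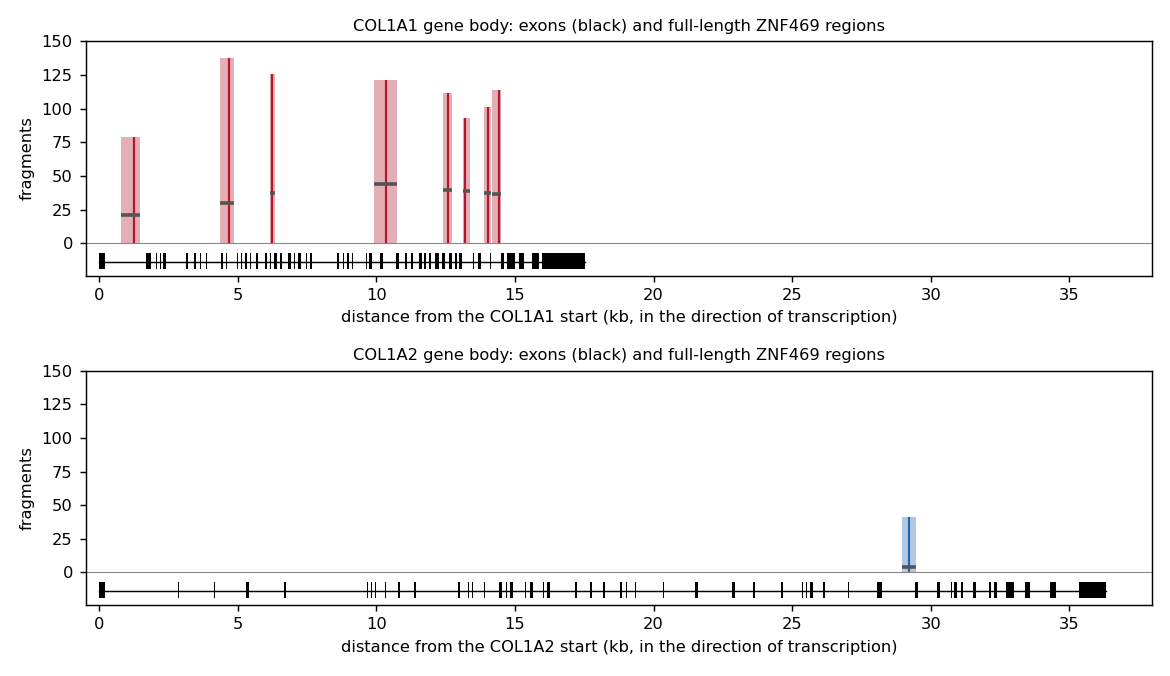
The gene bodies of COL1A1 (upper panel) and COL1A2 (lower panel) at one scale, with distance from the gene start in kb on the x axis and fragments on the y axis. Shaded boxes span each region up to its summit pileup, the vertical line marks the summit, the grey dash the local background, and black blocks below zero are exons. The 8 COL1A1 regions reach 79 to 138 fragments and the COL1A2 region 41.

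Within the genes the summits lay in introns. Of the 8 COL1A1 regions, 5 overlapped an exon, but 0 had the summit in one, although exons make up 33.7% of the gene. Exons made up 15.9% of the bases covered. The distance from a summit to the nearest exon edge was 34 to 103 bp at 7 of the regions and 430 bp at region 8. Over the whole list, 4.11% of the 8970 summits inside protein-coding genes and more than 1 kb from the start lay in an exon. That share was not matched on the exonic part of the genes, so it cannot show whether 0 of 8 is usual for a gene like COL1A1. In COL1A2 the summit also lay in an intron, 237 bp from an exon, with 14.0% of the gene exonic and 8.54% of the covered bases exonic. In COL3A1, 0 of 6 summits lay in an exon, where exons make up 14.3% of the gene.

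Upstream of COL1A1 the regions came in groups. Regions 6 and 7, with summits 8.87 and 8.17 kb before the start, had pileups of 42 (30.3 to 56.8) and 39 (27.7 to 53.3) over backgrounds of 6.16 and 6.12. Regions 4 and 5, 18.1 and 17.2 kb before the start, had pileups of 65 (50.2 to 82.8) and 43 (31.1 to 57.9) over 7.29 and 7.44. These backgrounds exceeded the medians of the list (1.82), of chromosome 17 (2.15) and of the 30 regions between 100 kb and 1 Mb from the gene (2.31). They were below every value inside the gene. Regions 6, 7 and 8 lay in the long noncoding RNA gene ENSG00000249406, which runs antisense to COL1A1 across its start, with the summit of region 8 being 0.501 kb from the start of that noncoding gene.

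Beyond a stretch of 49.9 kb without a record, regions 1 to 3 lay 68.7 to 88.6 kb before the COL1A1 start, around TMEM92, which encodes a transmembrane protein. Region 3, 1.08 kb from the TMEM92 start, had a pileup of 39 (27.7 to 53.3) over a background of 4.18. Region 2, in the TMEM92 body, had 18 (10.7 to 28.4) over 1.93. Region 1, 2.37 kb from the start of the antisense RNA TMEM92-AS1, had 43 (31.1 to 57.9) over 3.09. Its fold of 10.8 was the highest of the 23 members. The background at region 2 was near the median of the list. Region 1 had the same pileup as region 5, where the background was 7.44 and the fold 5.22.

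Downstream of COL1A1, the region nearest the gene end was the strongest of the flanks. Region 16, from 50178119 to 50179137, lay 4.96 kb past the gene end in the pseudogene H1-9P, a histone H1 relic. It had a pileup of 112 (92.2 to 135) over a background of 10.9, with a fold of 9.50, and its −log10 p-value of 71.8 ranked 17 in the list. Its pileup equalled that of region 12 inside the gene, 112 over a background of 39.5, where the fold was 2.79. Region 17, 10.1 kb past the gene end, lay in H1-9P and in SGCA, which encodes alpha-sarcoglycan of the muscle cell membrane. It had 56 (42.3 to 72.7) over 9.21.

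The outermost downstream record, region 18, lay 88.8 kb past the gene end, in PDK2 and 0.477 kb from its start. PDK2 is a kinase that restrains pyruvate dehydrogenase. Region 18 had a pileup of 27 (17.8 to 39.3) over 2.19, with a fold of 8.77, and it was also 1.15 kb from the start of the noncoding gene ENSG00000276851. Between regions 17 and 18 no record was found for 78.2 kb. This gap holds SAMD14 and PPP1R9B, the latter encoding spinophilin, a scaffold of protein phosphatase. The part of ITGA3, the integrin alpha 3 gene, that lies in the window also held none.

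Counted by neighbour, 3 of the 6 other protein-coding genes in the COL1A1 window had a region in the body (SGCA, PDK2 and TMEM92), and 2 had one within 3 kb of their start (PDK2 and TMEM92). The window of COL1A2 held parts of 2 other protein-coding genes, CASD1, an enzyme that acetylates sialic acids, and SGCE, which encodes epsilon-sarcoglycan. Both had 0 regions. The share of protein-coding genes with a region in the body was 33.6% genome-wide. No such share was set beside the count at gene starts, which is a description only.

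The 4 regions upstream of COL1A2 all lay in the long noncoding RNA gene ENSG00000285090, which is antisense to COL1A2 and overlaps its start. That noncoding gene spans the whole upstream flank of the window, so any upstream region had to lie in it. Region 1, 93.6 kb before the start, had a pileup of 42 (30.3 to 56.8) over a background of 4.05, close to the region of the gene body. Region 2, 49.8 kb before the start and also in the noncoding gene ENSG00000285964, had 14 (7.65 to 23.5) over 2.66 with a fold of 4.10, the lowest of the flanking members of both genes. Regions 3 and 4, 19.0 and 12.4 kb before the start, had 31 (21.1 to 44.0) over 2.72 and 19 (11.4 to 29.7) over 2.00. The last 107 kb of the window, from region 5 past the gene end to CASD1 and SGCE, held no record. The 16 regions between 100 kb and 1 Mb from COL1A2 had a median background of 2.25, beside 2.72 for the 5 members.

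Arranged by position, the COL1A1 background was lower on either side of the gene. Its median was 37.3 over the 8 regions in the gene body, 6.12 over the 7 upstream and 9.21 over the 3 downstream. The median pileups were 113, 42.0 and 56.0, and the median folds 2.94, 6.49 and 8.77. At COL1A2 the background ran only from 2.00 to 4.05 over all 5 regions and the gene body was not its highest. In the flanks alone the median pileup was 42.5 over the 10 regions of COL1A1 and 25.0 over the 4 of COL1A2, and the median backgrounds were 6.14 and 2.69.

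AP-1 letters were then sought in all members, as exact matches of TGAGTCA or its reverse complement TGACTCA. They were present in 44.1% of the full-length list, and in 7 of the 23 members with 8 sites. By gene this was 6 of 18 at COL1A1 (33.3%, 95% Wilson interval 16.3 to 56.3) and 1 of 5 at COL1A2 (20.0%, 3.62 to 62.4). Both intervals include the share of the list. At COL1A1 the letters were in 5 of the 10 flanking regions (50.0%, 23.7 to 76.3) and in 1 of the 8 gene body regions (12.5%, 2.24 to 47.1), intervals that overlap.

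The distance of the sites from the summits was also read. Over the whole list, 44.1% of regions had a site and 32.3% had one within 100 bp of the summit. Among the 23 members these were 7 and 6, so nearness to the summit does not set the members apart. In 6 of the 7 members with a site, a whole site was within 100 bp of the summit, and in the remaining member, COL1A1 region 5, the site was centred 100 bp away. Region 9, printed above, held 2 sites, from 50196991 to 50196997 and from 50197002 to 50197008, at 30 and 41 bp from its summit, and it was the region of highest pileup in either gene. Region 16, the strongest of the flanks, had its site 30 bp from the summit. Nearness to the summit did not go with pileup throughout. COL1A1 region 2, with a pileup of only 18, had its site nearer still, at 22 bp. COL1A1 regions 10 to 15, with pileups of 93 to 126, held no site. In COL1A2 the site of region 1 was 78 bp from the summit, and the region in the gene body had none.

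The gene body regions of COL1A1 differ from the list in base composition, so their AP-1 share was also set beside regions alike in that respect. Their GC content ran from 54.9% to 61.5%, with a median of 59.8% where that of the list was 44.6%. Of the 1890 regions of the list in this range, 29.9% held AP-1 letters. Of the 63 regions with a background of 10 or more, 41.3% did. With 8 regions, the share of 12.5% cannot be told apart from these at this number.

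Other elements were counted for comparison. The palindrome TGACGTCA, bound by CREB and ATF factors, was in 0 of the 23 members and in 1.12% of the list. The RUNX letters TGTGGTT, on either strand, were in 6 of the 23 members and in 14.1% of the list. These were 4 of the 18 COL1A1 regions (1, 4, 5 and 8) and 2 of the 5 COL1A2 regions (2 and 5). At COL1A2 the letters lay 13 bp from the summit of region 2 and 2 bp from the summit of region 5. The RUNX letters were chosen after the sequence at the COL1A2 summit had been seen, so their count is a description only.

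The dZF list had 0 regions within 100 kb of either gene. A dZF region lay within 100 kb of 88 of the 20033 protein-coding genes (0.439%), so the absence of one is the rule over all genes and does not set COL1A1 or COL1A2 apart. Each of chromosomes 7 and 17 had 1 dZF region, and the nearest was 23299 kb from COL1A1 and 38023 kb from COL1A2. The lowest background was 0.625 in the dZF list and 0.865 in the full-length list, a ratio of 1.38. These values correspond to 71 fragments of 88 bp and 84 fragments of 103 bp per 10 kb. The ratio thus holds fragment length as well as depth. The part of depth in the absence of dZF regions was not tested. A list holds only regions past its filter, so signal of dZF-ZNF469 below that filter cannot be seen here.

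Each region also carried a score from the irreproducible discovery rate (IDR) filter, of at most 1000. Whether it compares libraries with each other or subsamples of the pool is not given in the sources used here. The score was 1000 for 16 of the 23 members. Of the others, the lowest were COL1A2 region 2 (578) and COL1A1 region 12 (606), where the pileup was 112. Region 14, with a pileup of 101 (82.3 to 123), scored 668.

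Among other fibrillar collagen genes, the density over COL1A1 had its nearest like in COL3A1. Ranked by the highest background in the gene body, COL1A1 was 1 and COL3A1 was 2 of the 6736 protein-coding genes with a region, at 44.0 and 31.9. Ranks 3 to 6, from 19.8 down to 11.3, were held by genes that encode no collagen. COL5A2, which encodes a chain of type V collagen and neighbours COL3A1, was 7 at 11.0. COL1A2 was 408 at 3.99 and COL5A1, for the partner chain of COL5A2, was 616 at 3.55. By pileup the order was another: the highest in the COL3A1 gene body was 277, the highest of the whole list, beside 138 in COL1A1, 114 in COL5A2, 41 in COL1A2 and 31 in COL5A1. By background COL1A2 stood nearer to COL5A1 than to the gene of its own partner chain. COL3A1 had 15 regions within 100 kb and COL5A2 31, and since they neighbour each other they share some of these.

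**Figure D4:**
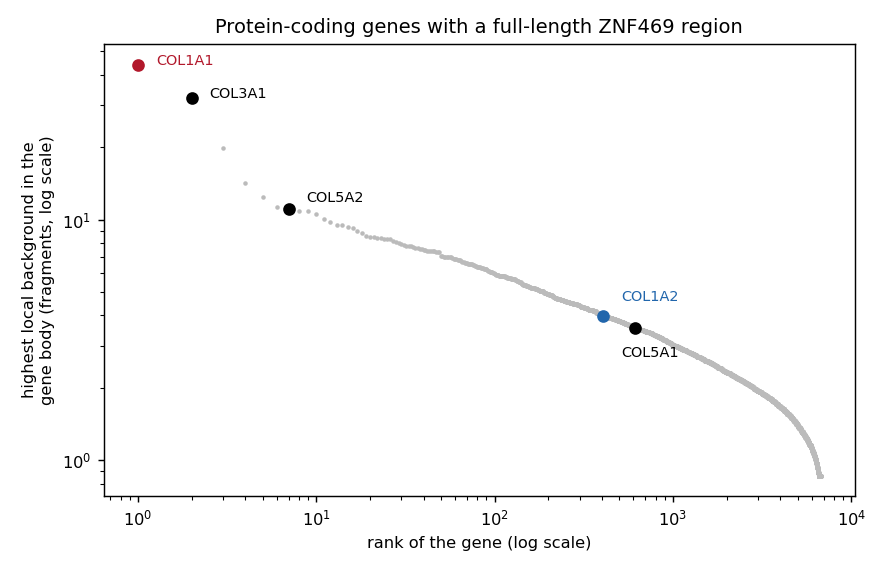
The 6736 protein-coding genes whose body held a full-length region, ranked (x axis, log) by their highest local background in fragments (y axis, log). Named points are 5 fibrillar collagen genes: COL1A1 at rank 1, COL3A1 at 2, COL5A2 at 7, COL1A2 at 408 and COL5A1 at 616.

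Collagen chains are hydroxylated, folded, exported and trimmed by a common set of enzymes and chaperones, and 25 of their genes were examined in the same way. Of these, 14 had a region in the gene body and 11 had none, where the share over all protein-coding genes was 33.6%. Gene length was not matched. P4HA2, a catalytic subunit of collagen prolyl 4-hydroxylase, had 5 regions over 105 kb, with pileups of 17 to 32 and backgrounds of 1.52 to 3.69. PLOD2, a lysyl hydroxylase, had 4 regions with pileups of 13 to 35 and backgrounds up to 6.55. P3H2, a prolyl 3-hydroxylase, had 3, with pileups of 14 to 18. SERPINH1, the chaperone of procollagen, had 2 in 10.7 kb, with pileups of 30 and 31 over 3.66 and 3.69. The pileups in these 4 genes, 13 to 35, were below that of the region in the COL1A2 gene body and below all 8 in the COL1A1 gene body. The counting limits of the COL1A2 pileup (41, 29.4 to 55.6) include the highest of them, 35. By background the order was another, since PLOD2 reached 6.55 where the COL1A2 region had 3.99.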

How the data were processed

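CUT&RUN with an antibody against ZNF469 was performed in 3 LX-2 libraries per construct. The submitters' processing notes name bcl2fastq, Bowtie2 2.3.4.3, MACS2 2.2.5 and hg38, while parameters and any control are not given in the sources used here. The authors pooled the libraries of each construct and deposited 1 list filtered by irreproducible discovery rate, with a score of at most 1000, a fold enrichment, a −log10 p-value and the summit position per region. The deposited −log10 q-value was not used. Read totals were not analysed.

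Pileup and background were solved from the fold, (pileup + 1)/(background + 1), and the Poisson −log10 p-value. A whole-number pileup met both values, within 0.001, for 100% of regions in both lists. The solution was tested on simulated data. Backgrounds were whole multiples of 0.0103 in 100.0% of 15299 full-length regions, within 0.02 steps. Only low backgrounds above the lowest of the list were tested in this way, which left out the gene body regions of both genes. Over the 23 members, the departure from a whole multiple was at most 0.008 steps. No record of a list overlaps another in the windows examined, so each record is called a region.

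Gene bodies, exons and neighbours were taken from GENCODE version 44, with exons of the Ensembl canonical transcript. Gene bodies were assigned by an overlap of at least 1 bp. Sequences were read from hg38, and positions count from 1. Named genes are COL1A1, COL1A2, all protein-coding genes of the windows, noncoding genes with a region in the body or within 3 kb of the start, COL3A1, COL5A1 and COL5A2, and the 4 of 25 collagen processing genes with the most regions. The members and gene lists were chosen with earlier results of these data known. The RUNX letters, the comparison of summits with exons, the regions matched on GC content or background, and the printed sequence past the COL1A1 end were chosen after the values were seen. A peak list holds no expression, so the cell type was not checked against markers. Computations used Python 3.11.15, numpy 2.4.6, pandas 2.3.3 and scipy 1.17.1. Results were recomputed with windows of 50 and 200 kb, a stricter irreproducible discovery rate of 0.01, the upper 50% of the list by fold or by pileup, regions assigned by summit, the flanks alone, and other ways of counting AP-1 letters.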

Additional observations from a re-analysis of the deposited data

How the results depend on the processing

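The 11 results were recomputed under 58 alternatives. Of these, 41 stayed within the limits set for a like value and 17 did not. The limits were a set factor for counts, Poisson counting limits for medians and Wilson intervals for shares. Counting limits do not measure the spread of a median over regions. The alternatives for the 0 dZF regions near the genes had to give 0 again, since the nearest lies beyond every window, and say nothing of stability. Others of the 41 also had to agree. Counting TGACGTCA too could change no share, since 0 of the 23 members hold it. The upper 50% by pileup had to keep all 8 COL1A1 gene body regions, whose pileups of 79 to 138 exceed the list median of 20.0. In the upper 50% of the list by fold, 5 regions remained in the COL1A1 window and 0 in its gene body. The 8 folds of the gene body, 2.35 to 4.45, are all below the median fold of the list, 7.36. The COL1A2 window kept 3 regions in that setting, in the upper 50% by pileup and at an irreproducible discovery rate of 0.01. The median pileup near COL1A1 (72.0) was 97.0 within 50 kb, 49.5 within 200 kb, 42.5 in the flanks alone and 43.0 in the upper 50% by fold. The median background near COL1A1 (10.1) was 25.7 within 50 kb, 6.96 within 200 kb, 6.14 in the flanks alone, 4.18 in the upper 50% by fold and 9.21 at the stricter rate. Wider windows and the flanks give the gene body less weight by construction. The median background near COL1A2 (2.72) was 3.99 both at the stricter rate and in the upper 50% by fold, with 3 regions. Within 50 kb, 0% of 4 COL1A2 regions held AP-1 letters.

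No paired analysis was possible because the libraries had been pooled before deposition, 3 to a list, and carry no separate values. Leaving out a library was not possible either, and the spread between libraries is unknown. Counting limits cover the depth of the pool only. No test between genes or constructs was made.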
